A study of Mus musculus with 27 samples.

Results

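The walls of brain vessels and the coverings of the brain hold cells that make the extracellular matrix. Followed here were 35 genes known for these cells or for the matrix. Whether these cells alone express them was not tested. They were taken from the deposited expression table by symbol with case ignored (pdgfrb, rgs5, col4a1, col1a2, ogn and so on), and all 35 were found among 26264 genes. They fall into 6 groups: 8 genes of mural cells, 5 fibrillar collagen genes, 6 basement membrane genes, 3 collagen VI genes, 8 genes of matrix glycoproteins and proteoglycans, and 5 genes of meningeal fibroblasts. The list was drawn up from what the genes are known for, with earlier results of these data known.

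Mural cells are the pericytes that sit on capillaries and the smooth muscle cells around arteries and arterioles. They share a basement membrane of type IV collagen, laminins and nidogen with the endothelium, and the PDGF receptor beta keeps pericytes in place. Fibroblasts lie in the leptomeninges and around larger vessels, and they make fibrillar collagens, collagen VI and small leucine-rich proteoglycans. In bulk cortex both cell types are minor, so their transcripts also depend on how much vessel and meninges a block of tissue holds.

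The libraries came from small blocks of cortex of female 5xFAD mice, which carry human transgenes with familial Alzheimer's disease mutations under the neuronal Thy1 promoter. All groups carried these transgenes. The mice were 16 weeks old and were killed 24 h after stereotaxic microinjection into the cortex of vehicle, or of the thiophene thioureas R33 or R55 at 10 mM, which stabilise the retromer complex. Both the injected and the contralateral hemisphere were sequenced for 4 vehicle mice and 5 R55 mice, and for 4 of 5 R33 mice, with the injected hemisphere alone used for the R33 mouse AE. This gave 27 libraries from 14 mice.

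Each library held between 15932196 and 38077026 fragments on genes. Values are FPKM, fragments per kilobase of gene scaled to the total of the library, and log₂ fold changes are on the log2(FPKM + 1) scale, which understates the change of genes near 0. Genes were tested with limma when their mean was at least 1 FPKM over the 27 libraries, and were called at an adjusted p-value under 0.05. Of 26264 genes 12976 were tested, and of the 35 members 31 passed this filter. Of the tissue, the 6 neuronal markers checked summed to between 2016 and 3226 FPKM in every library. The haemoglobin genes Hba-a1, Hba-a2, Hbb-bs and Hbb-bt are listed at 0 in all 27 libraries.

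The promoters of a pair of genes are shown because these genes, the fibrillar collagen gene Col1a2 and the proteoglycan gene Ogn, were among the 9 members that limma called higher in mice with two-letter labels. They are the 250 bases before the annotated start, on the plus strand, from RefSeq on GRCm38.p6. Capitals mark the letters of the motifs searched on both strands: the GC box GGGCGG, the CCAAT box CCAAT and the TATA box TATAAA.
Col1a2, chr6:4505368-4505617: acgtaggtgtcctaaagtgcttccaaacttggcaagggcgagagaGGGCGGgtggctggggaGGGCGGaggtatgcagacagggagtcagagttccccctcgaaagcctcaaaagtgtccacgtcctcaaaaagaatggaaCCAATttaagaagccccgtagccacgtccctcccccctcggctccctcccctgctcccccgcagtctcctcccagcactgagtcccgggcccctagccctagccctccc
Ogn, chr13:49607765-49608014: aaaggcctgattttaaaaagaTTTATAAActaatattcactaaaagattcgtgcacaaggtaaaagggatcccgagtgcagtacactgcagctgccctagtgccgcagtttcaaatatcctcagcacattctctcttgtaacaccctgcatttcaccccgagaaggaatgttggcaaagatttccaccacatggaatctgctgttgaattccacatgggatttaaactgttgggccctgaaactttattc
The Col1a2 window held GGGCGG at 205 and 188 bases before the start and CCAAT at 109 bases before it. The Ogn window held TTTATA and TATAAA, the same motif on either strand and overlapping, at 229 and 227 bases before the start. Over 32851 windows of the same length, 32.7% held GGGCGG or its complement, 33.8% held CCAAT or its complement and 12.4% held TATAAA or its complement. A match describes the letters only. Of the 35 members 25 had an entry in the promoter table.

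The members spanned a wide range of levels. Sparc, a collagen-binding matricellular protein, had the highest mean, 133 FPKM. It was followed by Vtn, the adhesive glycoprotein vitronectin that brain pericytes express, at 43.3 FPKM, and by Mgp, the calcification inhibitor matrix Gla protein, at 39.3 FPKM. Igfbp2 and Igf2, an insulin-like growth factor binding protein and one of its ligands, had means of 30.9 and 15.1 FPKM, and the pericyte regulator of G protein signalling Rgs5 had 22.3 FPKM. Col4a2 and Col4a1, the chains of the main type IV collagen, had means of 6.14 and 5.27 FPKM, above the type I chains Col1a2 at 3.19 and Col1a1 at 2.11 FPKM. The collagen VI chains Col6a1 and Col6a2 had 5.30 and 1.90 FPKM. Below the filter were Col3a1 at 0.651 FPKM, Fbn1, which encodes fibrillin-1, at 0.576, Col5a2 at 0.4661 and Col6a3 at 0.156 FPKM, so these genes were described by level alone.

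The 6 widest ranges between libraries were those of Aldh1a2, Ogn, Lum, Dcn, Mgp and Col3a1. The highest library was 23.6 times the lowest for Aldh1a2, a retinoic acid synthesising enzyme of the meninges, and 17.6 times for Ogn, osteoglycin. The ratio was 14.3 for Lum, lumican, 13.99 for Dcn, decorin, 11.9 for Mgp and 10.9 for Col3a1. For the 8 mural genes it ran from 2.21 for Vtn and 2.24 for Pdgfrb to 5.60 for Myh11, the smooth muscle myosin gene, a span that overlaps with matrix members such as Bgn at 3.67 and Fbn1 at 2.76. A single library, the injected hemisphere of the R33 mouse AD, held the highest value of 14 of the 35 members and the lowest value of 5. The 14 were Col1a1 and Col1a2, the collagen VI genes Col6a1 and Col6a2, 5 glycoproteins and proteoglycans such as Mgp at 176 and Dcn at 30.9 FPKM, 3 meningeal genes, and the smooth muscle genes Acta2 and Tagln at 7.93 and 9.25 FPKM. The 5 lowest were Pdgfrb at 3.45, Rgs5 at 12.6, the pericyte channel subunit Abcc9 at 0.527, and the laminin chains Lama2 at 0.744 and Lamc1 at 2.27 FPKM. The injected hemisphere of the R33 mouse O held the highest value of 4 members, with 322 FPKM of Sparc against 80.7 to 210 FPKM in the 26 others. In bulk tissue, fewer cells of a type and less RNA per cell cannot be told apart, which holds for every result that follows.

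**Figure D1:**
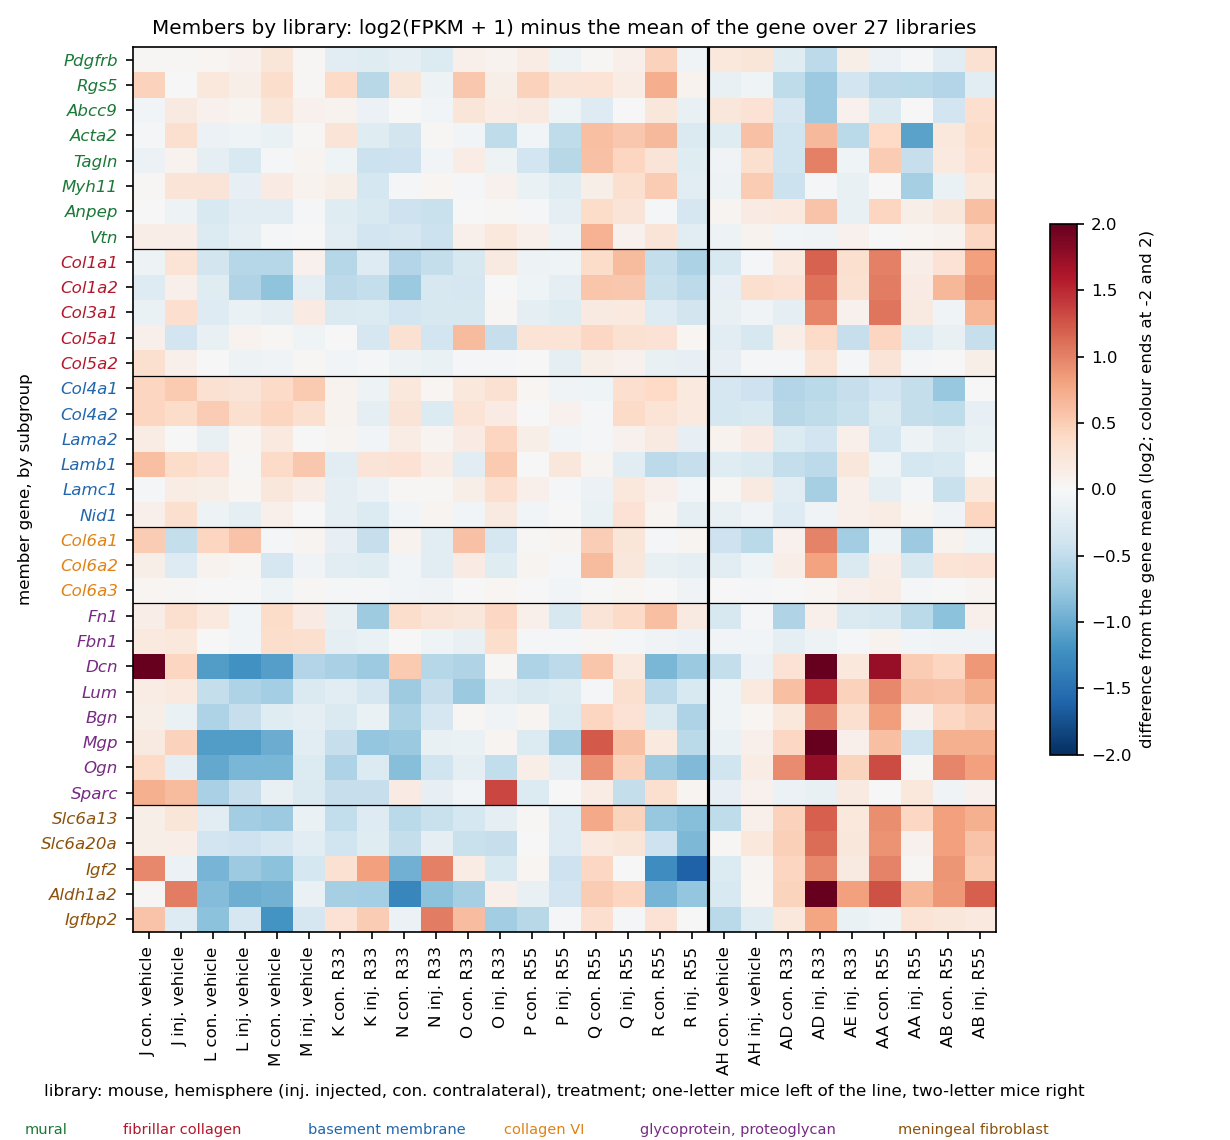
Each cell is log2(FPKM + 1) of a member gene (rows, coloured by group) in a library (columns), minus the mean of the gene over all 27 libraries, with the colour scale ending at -2 and 2. The injected library of mouse AD is the darkest red column for proteoglycans and meningeal genes, and Col4a1 and Col4a2 are mostly blue to the right of the line, where mice have two-letter labels.

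The first question was whether R55 changed these genes. A treatment belongs to a mouse, but the main fits by treatment count its hemispheres as separate libraries. Where hemispheres correlate, this makes the p-values, SEs and intervals of all treatment comparisons too small. With 1 value per mouse, no member was called in any of them either. In R55 against vehicle, none of 31 tested members was called by limma, where 0.00771% of all tested genes were called. Without adjustment 4 of 31 had p under 0.05, beside 8.45% of all tested genes. Of these 3 were higher, beside 4.71% of all genes, and 1 was lower, beside 3.74%. Estimates were above 0 for 20 members and below 0 for 11, with a median log₂ fold change of 0.17 against 0.03 over all tested genes. By group, the medians were 0.39 for fibrillar collagens, 0.38 for glycoproteins and proteoglycans, 0.45 for meningeal fibroblast genes, -0.01 for mural genes and -0.20 for basement membrane genes.

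Ogn had the largest estimate after R55. It measured 0.556 to 3.13 FPKM in the 8 vehicle libraries (median 1.51) and 0.7097 to 6.84 FPKM in the 10 R55 libraries (median 2.94). The groups overlapped over most of their range, and the log₂ fold change was 0.68 (SE 0.329, limma adjusted p = 0.586). Mgp had 14.7 to 45.9 FPKM in vehicle controls (median 29.2) and 20.7 to 79.5 FPKM after R55 (median 44.1), with a log₂ fold change of 0.57 (SE 0.342, limma adjusted p = 0.617). For Aldh1a2 the values were 1.28 to 8.14 FPKM (median 2.88) and 1.36 to 9.91 FPKM (median 5.25), with a log₂ fold change of 0.54 (SE 0.381, limma adjusted p = 0.65). None of these differences exceeded the spread between libraries. Without the vehicle mouse L the estimates of Mgp and Aldh1a2 were each 0.32, and that of Aldh1a2 was 0.35 without the R55 mouse AB and 0.82 without the R55 mouse R.

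The other members under an unadjusted p of 0.05 were Col1a2, Igfbp2 and the laminin chain Lamb1, named after their values were seen. Lamb1 lay at 1.68 to 3.96 FPKM in vehicle controls and 1.26 to 2.80 FPKM after R55, a log₂ fold change of -0.38 (SE 0.146, limma adjusted p = 0.552). Its estimate was -0.52 among the 9 mice whose label is a single letter and 0.077 among the 5 mice whose label is a pair of letters, a difference that was not tested. Col1a2 had a log₂ fold change of 0.49 (SE 0.228) and Igfbp2 one of 0.46 (SE 0.201), and with the number of letters in the mouse label as a covariate these became 0.38 and 0.45, again not called (limma adjusted p = 0.62 and 0.624).

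After R33, which was given at the same concentration, again none of 31 members was called by limma, where 0% of all tested genes were called. Without adjustment 1 member was higher at p under 0.05, beside 3.19% of all tested genes, and 2 were lower, beside 2.68% (5.87% in either direction). Of the estimates 15 were above 0 and 16 below. Igfbp2 had the largest estimate, with 12.2 to 43.9 FPKM in vehicle controls (median 22.9) and 17.6 to 60.2 FPKM after R33 (median 35.8). Of the 8 vehicle libraries, the contralateral hemisphere of mouse J was the highest with 43.9 FPKM, and the other 7 lay between 12.2 and 24.6 FPKM. The log₂ fold change was 0.67 (SE 0.206, unadjusted p = 0.00327, limma adjusted p = 0.834). It was 0.66 with the label letters as a covariate, 0.67 among one-letter mice and 0.65 among two-letter mice.

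Igf2 had a log₂ fold change of 0.56 (SE 0.332) and Ogn one of 0.44 (SE 0.338) after R33, neither called (limma adjusted p = 0.85 for both). The Ogn estimate was 0.063 without the R33 mouse AD and 0.25 without the vehicle mouse L. Igf2 ranged from 6.61 to 27.1 FPKM in vehicle controls (median 10.6) and from 6.43 to 27.9 FPKM after R33 (median 16.8). The vehicle maximum was a single library, the contralateral hemisphere of J, and the other 7 vehicle libraries lay between 6.61 and 13.98 FPKM, while 7 of 9 R33 libraries lay between 14.9 and 27.9 FPKM. The 2 lower members, named after their values were seen, were Pdgfrb, the PDGF receptor that marks pericytes, with a log₂ fold change of -0.26 (SE 0.0889), and Col4a2 with -0.35 (SE 0.151). For both the limma adjusted p was 0.834. With the label letters as a covariate, Col4a2 had a log₂ fold change of -0.30 (SE 0.076, unadjusted p = 5.14e-04, limma adjusted p = 0.452).

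Choroid plexus epithelium, which the transthyretin gene Ttr defines, also expresses Igf2 and Igfbp2. Ttr exceeded 100 FPKM in 7 libraries: 4 of R33 (N injected, both of K, O contralateral), 2 of vehicle (J contralateral, L injected) and 1 of R55 (P contralateral). In these 7 it ran from 146 to 1616 FPKM, and in the other 20 from 2.09 to 65.4 FPKM. The highest Igfbp2 and Igf2 values, 60.2 and 27.9 FPKM, were those of N injected, where Ttr was also highest. Of 8 choroid plexus markers 7 were tested, and none was called for R33 against vehicle, and their median log₂ fold change was 0.58. A fit of R33 against vehicle without these 7 libraries was among the alternatives. Over the alternatives other than leaving a mouse out, the estimate ran from 0.57 to 0.79 for Igfbp2 and from 0.25 to 0.82 for Igf2. The part of choroid plexus in the R33 result was not tested.

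R55 and R33 were compared directly, since both were given at 10 mM and examined at 24 h. None of 31 members was called by limma for R55 against R33, where 0% of all tested genes were called, and at an unadjusted p-value under 0.05 2 were higher, beside 0.732% of all tested genes, and 0 were lower, beside 0.416% (1.15% in either direction). Aldh1a2 had a log₂ fold change of 0.35 (95% interval -0.41 to 1.11), Col1a2 one of 0.35 (-0.11 to 0.80) and Igf2 one of -0.33 (-0.97 to 0.32), each with a limma adjusted p of 0.9998. These intervals do not show that the compounds act alike. All intervals here count the hemispheres of a mouse as separate libraries, which makes them too narrow where hemispheres correlate. With each mouse left out, Aldh1a2 ran from 0.072 (without N) to 0.75 (without AD) and Col1a2 from 0.22 (without N) to 0.57 (without AD). For 26 of 31 members the estimate was higher after R55, and the 2 under an unadjusted p of 0.05, named after their values were seen, were Vtn with 0.26 (0.05 to 0.46) and Pdgfrb with 0.20 (0.03 to 0.37). Vtn ran from 31.4 to 49.4 FPKM after R33 (median 40.6) and from 36.6 to 69.4 FPKM after R55 (median 45.2), so the groups overlapped. Both comparisons with vehicle share the vehicle libraries.

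**Figure D2:**
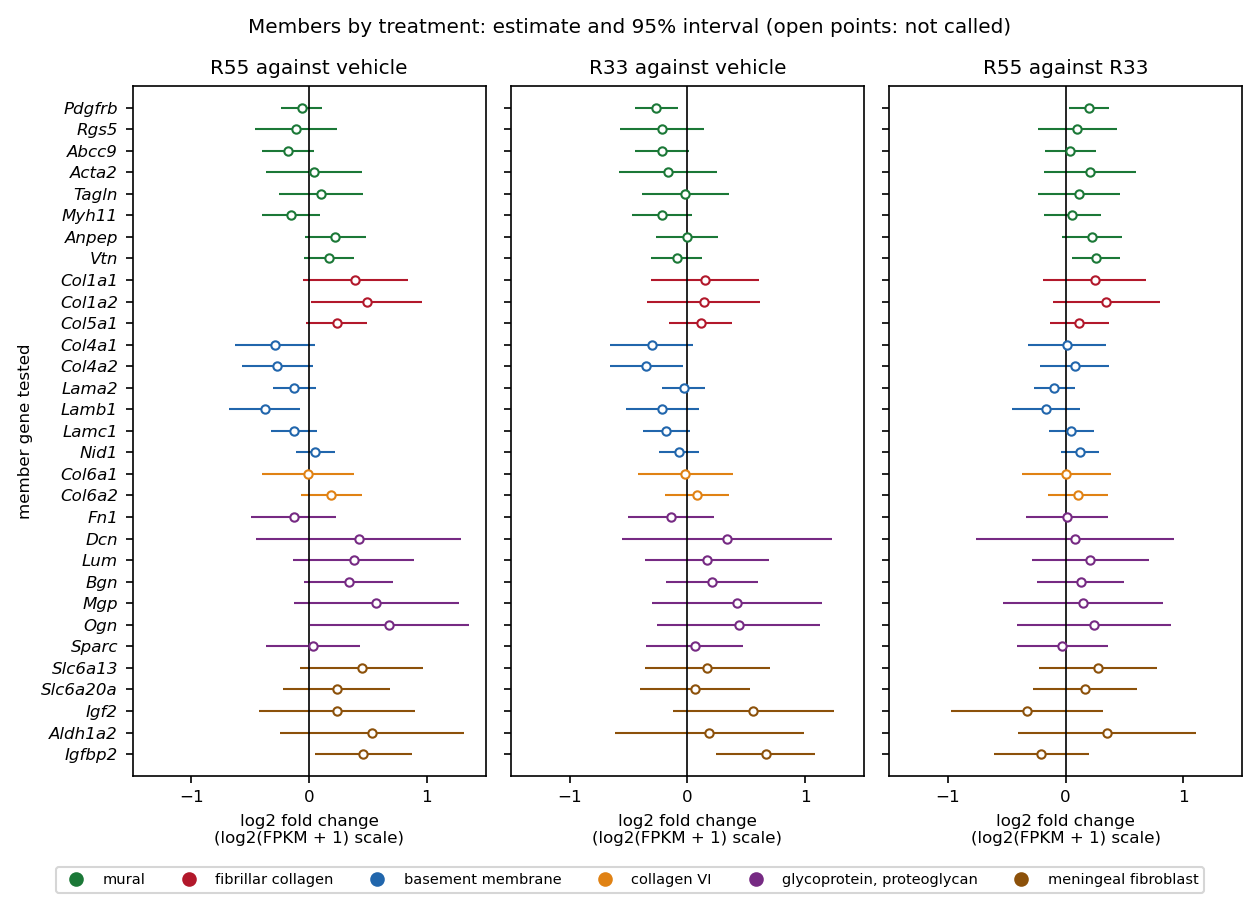
Points are the log₂ fold changes of the 31 tested members on the log2(FPKM + 1) scale and bars their 95% intervals, for R55 against vehicle, R33 against vehicle and R55 against R33, coloured by group. Every point is open, which means not called, and the widest bars belong to Dcn, Aldh1a2, Mgp, Ogn and Igf2.

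The genes that remodel the matrix or signal to its cells gave no call by treatment either. Of 17 tested genes of matrix remodelling, 3 were higher and 1 lower at an unadjusted p-value under 0.05 after R55, beside 4.71% and 3.74% of all tested genes. The smallest p was that of Mmp14, a membrane-bound collagenase, with a log₂ fold change of -0.43 (SE 0.157, limma adjusted p = 0.545). After R33 the smallest p among 18 genes of PDGF and TGF-beta signalling was that of Pdgfb, the endothelial ligand that recruits pericytes, with -0.19 (SE 0.0679, limma adjusted p = 0.834). Among 9 other mural genes it was that of Cspg4, the pericyte proteoglycan NG2, with -0.30 (SE 0.119, limma adjusted p = 0.834). Between R55 and R33, the matricellular gene Ccn1 had 0.51 (SE 0.188, limma adjusted p = 0.9998), and 5 of 7 choroid plexus genes were lower at an unadjusted p-value under 0.05, beside 0.416% of all tested genes.

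The injection itself was examined by comparing the hemispheres. The main fit did not pair the hemispheres of a mouse, and a fit with the mouse as a replicate block also called no member. None of 31 members was called by limma for injected against contralateral, where 0% of all tested genes were called. In the main fit without adjustment, 1 member was lower at p under 0.05, beside 2.01% of all tested genes. There 0 were higher, beside 1.46% (3.47% in either direction). This was Col5a1, a chain of the collagen that initiates fibrils, with 1.32 to 3.18 FPKM in the 13 contralateral libraries (median 1.96) and 0.961 to 2.51 FPKM in the 14 injected libraries (median 1.20). It was lower on the injected side in 10 of 13 mice, with a log₂ fold change of -0.31 (SE 0.103, unadjusted p = 0.00607, limma adjusted p = 0.9999). Within the 13 pairs its mean log2 difference was -0.28 (SD 0.383). Across the fits of this comparison, 0 to 3 members were lower and 0 to 2 higher at an unadjusted p under 0.05. The share of all tested genes in those fits is not given here.

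Rgs5 was lower on the injected side in 11 of 13 mice. It measured 14.03 to 36.1 FPKM in contralateral libraries (median 26.03) and 12.6 to 25.99 FPKM in injected ones (median 20.9), a log₂ fold change of -0.27 (SE 0.138, limma adjusted p = 0.9999). Within the 13 pairs its mean log2 difference was -0.26 (SD 0.325). Among one-letter mice the log₂ fold change was -0.39 (SE 0.0856) and among two-letter mice 0.076 (SE 0.101), with limma adjusted p-values of 0.983 and 0.9999, and the difference was not tested. Aldh1a2 had the largest estimate, 0.40 (SE 0.31, limma adjusted p = 0.9999), with 1.28 to 19.6 FPKM on the injected and 0.832 to 9.91 FPKM on the contralateral side. It was higher on the injected side in 8 of 13 mice, with a mean log2 difference within pairs of 0.35 (SD 0.621). Col1a1, Lum and Col3a1 were higher there in 10 of 13 mice, without a call for the 2 that were tested.

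Of the matrix remodelling genes, 3 of 17 were higher on the injected side at an unadjusted p-value under 0.05, beside 1.46% of all tested genes. Thbs2, thrombospondin-2, had a log₂ fold change of 0.18 (SE 0.0624, limma adjusted p = 0.9999). The fibronectin receptor chain Itga5 also had 0.18 (SE 0.0709, limma adjusted p = 0.9999). Neither passed the adjusted threshold.

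**Figure D3:**
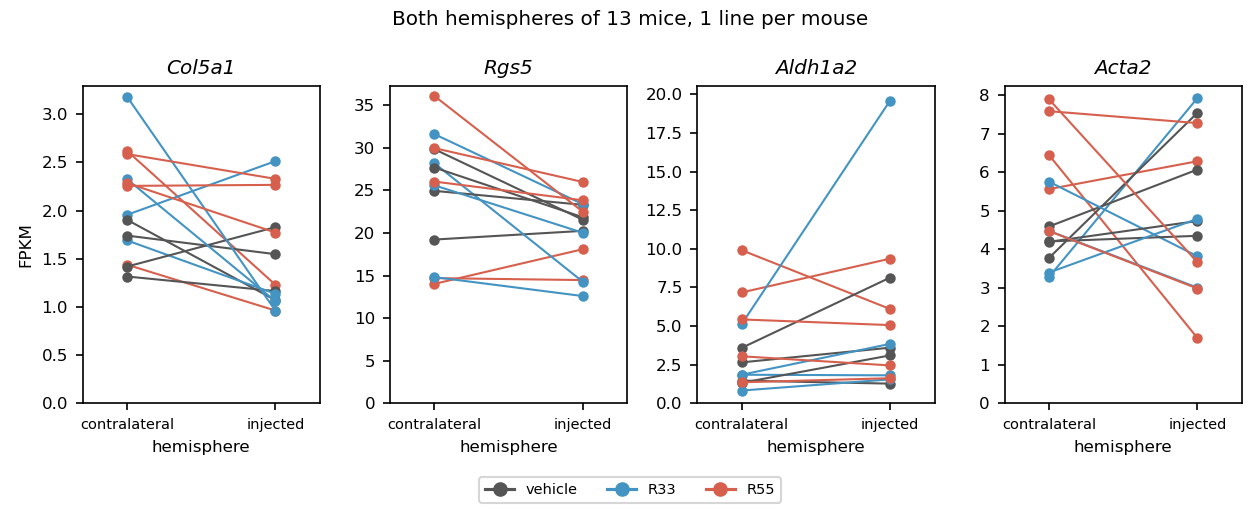
Each line joins the FPKM of the contralateral and the injected hemisphere of a mouse, for 13 mice coloured by treatment. The line of Rgs5 slopes down in 11 of 13 mice and that of Col5a1 in 10, while Aldh1a2 and Acta2 cross in both directions.

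Whether a drug effect differed between hemispheres was tested as an interaction. For R55 by hemisphere none of 31 members was called by limma, where 0% of all tested genes were called, and 1 member had an unadjusted p-value under 0.05 with a difference below 0, beside 1.24% of all tested genes. None had one above 0, beside 0.601% (1.84% in either direction). The member was Acta2, the smooth muscle actin of arteriolar mural cells. In vehicle mice its contralateral values were 4.60 FPKM in J, 4.20 in M, 4.21 in L and 3.78 in AH. The injected values were 6.07, 4.74, 4.35 and 7.55 FPKM in the same order, higher in 4 of 4 mice. In R55 mice the contralateral values were 4.48 FPKM in P, 6.45 in AA, 7.59 in Q, 7.90 in R and 5.57 in AB. The injected values were 2.98, 1.70, 7.28, 3.67 and 6.29 FPKM, higher in AB alone. The difference between these hemisphere effects was -0.89 on the log2 scale (SE 0.369, unadjusted p = 0.0234, limma adjusted p = 0.999), so it did not pass the threshold over all genes.

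The same difference was -0.87 (SE 0.668) for Mgp and -0.66 (SE 0.658) for Ogn, both with a limma adjusted p of 0.999. For R33 by hemisphere none of 31 members was called by limma, where 0% of all tested genes were called, and none had an unadjusted p-value under 0.05, beside 0.378% of all tested genes (0.0771% above 0 and 0.301% below). The largest differences were 0.57 (SE 0.653) for Igf2, 0.52 (SE 0.896) for Dcn and -0.40 (SE 0.258) for Col5a1, each with a limma adjusted p of 0.9997. With each mouse left out, Dcn ran from 0.057 (without J) to 0.93 (without N), Igf2 was lowest at 0.14 (without N), and Col5a1 ran from -0.60 (without AD) to -0.23 (without O).

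The clearest separation among these genes followed the label of the mouse. In 9 mice the label is a single letter (J to R) and in 5 it is a pair of letters (AA, AB, AD, AE, AH), and nothing in the labels says what the letters stand for. Each treatment held both kinds, with 3 one-letter mice each and 1 two-letter mouse for vehicle, 2 for R33 and 2 for R55. The fit compared the 9 libraries of two-letter mice with the 18 of one-letter mice, with treatment and hemisphere as covariates. A label belongs to a mouse, but these p-values count its hemispheres as separate libraries, which makes them too small where hemispheres correlate. Of 31 tested members 13 were called by limma, 41.9%, where 19.1% of all tested genes were called. There were 9 members higher in two-letter mice (29.03%, where 8.85% of all tested genes were higher) and 4 lower (12.9%, where 10.2% were lower). Without adjustment 19 of 31 had p under 0.05, 12 higher and 7 lower, beside 33.9% of all tested genes, 16.1% higher and 17.7% lower. With 1 value per mouse, Anpep, Col1a1 and Slc6a13 were not called. The share of all tested genes called with 1 value per mouse is not given here. The comparison of 41.9% with 19.1% therefore rests on the fit that counts hemispheres as separate libraries. Since the libraries had been seen to separate by this label before, the counts describe them. How many of all tested genes lie apart by label, in libraries or in the means of mice, is not given here. Values without overlap therefore do not set a member apart from other genes.

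The higher members were 2 of 3 tested fibrillar collagens, 3 of 7 tested glycoproteins and proteoglycans, 3 of 5 meningeal fibroblast genes and 1 of 8 mural genes (Anpep). The lower members were 2 of 6 basement membrane genes, the pericyte gene Rgs5 and Fn1. The median log₂ fold change was 0.68 for meningeal fibroblast genes, 0.69 for glycoproteins and proteoglycans and 0.55 for fibrillar collagens. It was -0.25 for basement membrane genes, -0.02 for mural genes and -0.06 for the collagen VI genes, against -0.01 over all tested genes.

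**Figure D4:**
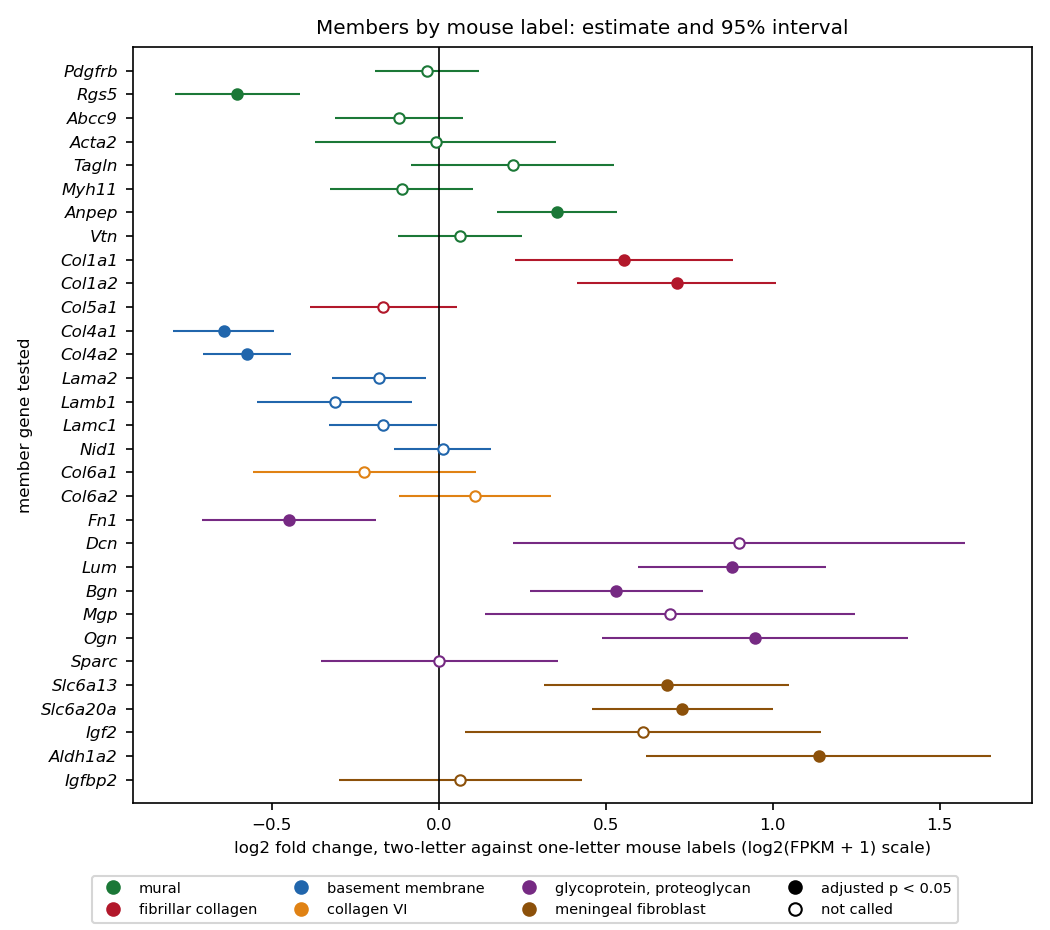
Points are log₂ fold changes of the 31 tested members, two-letter against one-letter mouse labels, on the log2(FPKM + 1) scale, with 95% intervals, coloured by group and filled when called. The 9 filled points to the right include Aldh1a2 at 1.14, and the 4 to the left are Rgs5, Col4a1, Col4a2 and Fn1.

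The type IV collagen chains gave the smallest p-values. Col4a1 and Col4a2 lie head to head on chromosome 8 (GRCm39, from 11248423 to 11362826 and from 11362471 to 11499287), on opposite strands, and their annotated ends share 356 bases. Col4a1 measured 4.67 to 7.78 FPKM in one-letter mice (median 6.14) and 2.57 to 5.05 FPKM in two-letter mice (median 3.41). Of the 9 libraries of two-letter mice 8 lay below every library of a one-letter mouse, and the exception was the injected hemisphere of AB at 5.05 FPKM. The log₂ fold change was -0.64 (SE 0.0734, limma adjusted p = 2.72e-06). Col4a2 fell likewise, from a median of 7.34 FPKM (4.75 to 8.90) to a median of 4.09 FPKM (3.73 to 5.23), with a log₂ fold change of -0.57 (SE 0.0643, limma adjusted p = 2.56e-06).

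In the mean over the hemispheres of a mouse, Col4a1 ran from 5.00 to 7.47 FPKM in one-letter mice and from 3.12 to 3.81 FPKM in two-letter mice. Col4a2 ran from 5.70 to 8.29 FPKM and from 3.81 to 4.56 FPKM. For both genes no two-letter mouse reached the lowest one-letter mouse. The share of all tested genes that lie apart in this way is not given here. The vehicle mouse AH, with 3.54 and 3.79 FPKM of Col4a1, stood below the other vehicle mice at 6.24 to 7.78 FPKM. AH is the only two-letter vehicle mouse, so these values test no label difference. The laminin and nidogen partners of this membrane differed less, with -0.31 for Lamb1 (SE 0.113, limma adjusted p = 0.0536), -0.18 for Lama2 (SE 0.0686), -0.17 for Lamc1 (SE 0.0784) and 0.01 for Nid1 (SE 0.0708), none called.

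Rgs5 lies on chromosome 1 from 169483036 to 169524887 (GRCm39). It measured 14.3 to 36.1 FPKM in one-letter mice (median 25.3) and 12.6 to 20.2 FPKM in two-letter mice (median 14.8). The means of the mice were 21.2 to 29.3 and 13.7 to 19.7 FPKM, without overlap, and the share of all genes without overlap is not given here. Its log₂ fold change was -0.60 (SE 0.0906, limma adjusted p = 1.09e-04). Most other mural members were not called. Pdgfrb had -0.04 (SE 0.076), Vtn 0.06 (SE 0.0902), Abcc9 -0.12 (SE 0.0929) and the smooth muscle genes Acta2 -0.01, Myh11 -0.11 and Tagln 0.22. Anpep, the aminopeptidase CD13 that pericytes and fibroblasts carry, was higher by 0.35 (SE 0.087, limma adjusted p = 0.00747), but was not called with 1 value per mouse (limma adjusted p = 0.0817). A further 9 tested mural genes outside the list, such as Cspg4, gave no call, and 3 of them were lower at an unadjusted p-value under 0.05, beside 17.7% of all tested genes.

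Fibronectin, Fn1, was the fourth lower member. Its range was 3.59 to 10.4 FPKM in one-letter mice (median 7.72) and 3.28 to 7.07 FPKM in two-letter mice (median 5.07), with a log₂ fold change of -0.45 (SE 0.126, limma adjusted p = 0.0158). All 9 libraries of two-letter mice lay below the median of one-letter mice, yet the ranges overlapped. With the trend on gene length removed Fn1 was not called (limma adjusted p = 0.057), nor with the correlation of the hemispheres of a mouse as a replicate block (limma adjusted p = 0.0506).

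Among the higher members, Lum separated most. It measured 0.376 to 1.87 FPKM in one-letter mice (median 0.866) and 1.17 to 5.37 FPKM in two-letter mice (median 2.46). Of the 9 libraries of two-letter mice 7 lay above every one-letter library, without a share over all tested genes to compare. The log₂ fold change was 0.88 (SE 0.137, limma adjusted p = 1.63e-04). The other proteoglycans were higher as well, Ogn by 0.95 (SE 0.223, limma adjusted p = 0.00578) and Bgn, biglycan, by 0.53 (SE 0.126, limma adjusted p = 0.00598). Ogn had medians of 1.52 FPKM in one-letter and 4.59 FPKM in two-letter mice, and Bgn had medians of 6.28 and 9.51 FPKM. Dcn had 0.90 (SE 0.329) and Mgp 0.69 (SE 0.269) without a call (limma adjusted p = 0.0558 and 0.0699). Dcn was highest of all one-letter libraries in the contralateral hemisphere of J, at 29.1 FPKM, and without mouse J it was called (log₂ fold change 1.09, limma adjusted p = 0.00304). It was also called without mouse Q (1.005, limma adjusted p = 0.0387) and without mouse AH (1.22, limma adjusted p = 0.0333).

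Both type I collagen chains were higher in two-letter mice. Col1a2, which lies on chromosome 6 from 4504814 to 4541555 (GRCm39), measured 1.23 to 4.72 FPKM in one-letter mice (median 2.20) and 2.47 to 7.31 FPKM in two-letter mice (median 3.90). Its log₂ fold change was 0.71 (SE 0.145, limma adjusted p = 0.00219). Col1a1, its partner in the same trimer, had medians of 1.39 and 2.56 FPKM and a log₂ fold change of 0.55 (SE 0.159, limma adjusted p = 0.0174). Without mouse AD, Col1a1 was not called (log₂ fold change 0.43, limma adjusted p = 0.0896), nor was it with 1 value per mouse (limma adjusted p = 0.0657). The one-letter R55 mouse Q, at 4.67 and 4.72 FPKM of Col1a2, lay within the range of the two-letter mice.

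Of the members, the meningeal gene Aldh1a2 had the largest estimate. It measured 0.832 to 8.14 FPKM in one-letter mice (median 1.85) and 2.65 to 19.6 FPKM in two-letter mice (median 6.95), a log₂ fold change of 1.14 (SE 0.251, limma adjusted p = 0.00377). All 9 libraries of two-letter mice lay above the median of one-letter mice, and 3 lay above every one-letter library. Slc6a20a, a proline transporter gene, had medians of 2.84 and 5.58 FPKM and a log₂ fold change of 0.73 (SE 0.132, limma adjusted p = 8.37e-04). It has a close paralogue, Slc6a20b, so fragments could be split between them, which makes its level uncertain. Slc6a13, a GABA transporter of the meninges, had medians of 2.04 and 3.996 FPKM and a log₂ fold change of 0.68 (SE 0.178, limma adjusted p = 0.0106), and without mouse AD it was not called (0.53, limma adjusted p = 0.0637), nor with 1 value per mouse (limma adjusted p = 0.0729). Igf2 had 0.61 (SE 0.259, limma adjusted p = 0.0963) and Igfbp2 0.06 (SE 0.177), neither called.

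**Figure D5:**
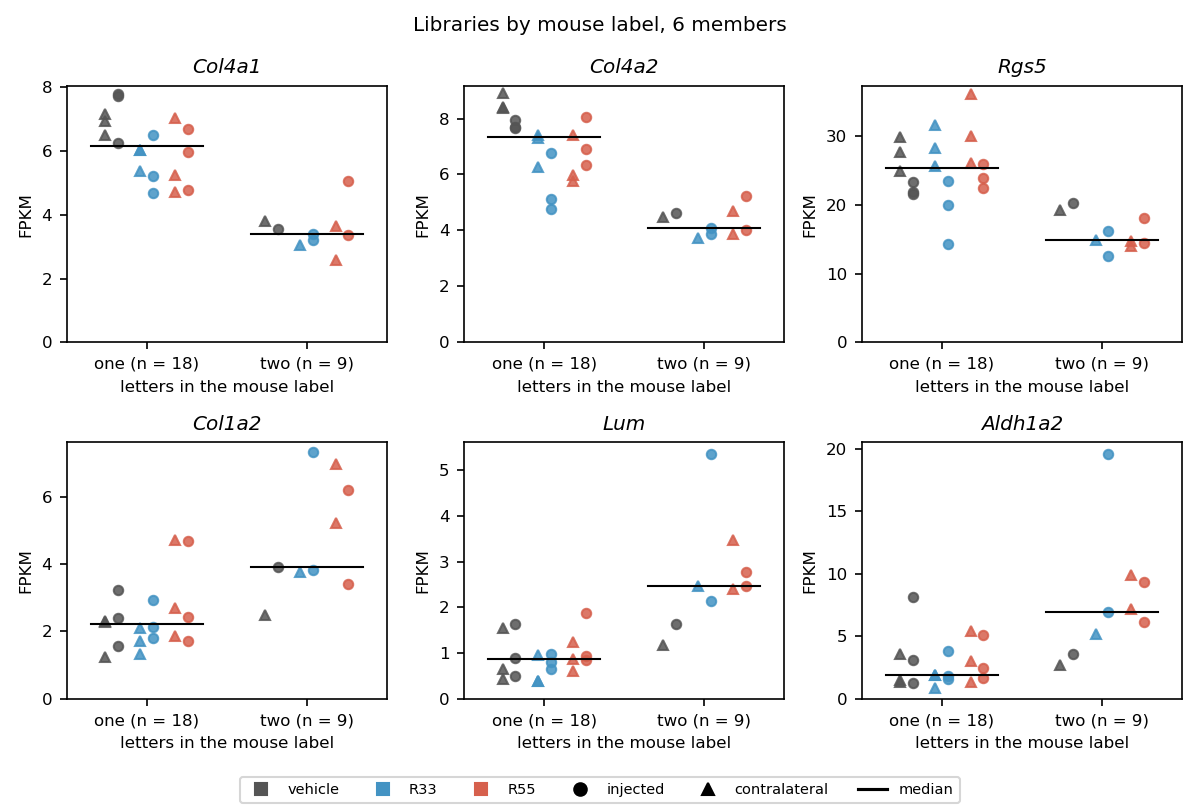
Points are the FPKM of single libraries, grouped by the number of letters in the mouse label, coloured by treatment, with circles for the injected and triangles for the contralateral hemisphere and a line at the median. Col4a1, Col4a2 and Rgs5 have medians of 6.14, 7.34 and 25.3 FPKM on the left and 3.41, 4.09 and 14.8 FPKM on the right, while Col1a2, Lum and Aldh1a2 have the higher medians on the right.

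The label difference was also fitted within each treatment, with AH as the only two-letter mouse of the vehicle group. For Col4a1 the log₂ fold change was -0.78 in vehicle, -0.65 in R33 and -0.54 in R55 mice, and for Rgs5 it was -0.31, -0.58 and -0.79. For Aldh1a2 it was 0.18, 1.72 and 1.22, and for Col1a1 0.03, 0.84 and 0.61. The signs of these 4 genes, given as examples, were the same in the 3 treatments, with values near 0 for Col1a1 in vehicle mice. Not every member kept its sign. Dcn had -0.04 in vehicle libraries, against 0.90 over all libraries. Whether the label difference depended on treatment was not tested. Among R33 libraries 0 members were called by limma and among R55 libraries 1 (Rgs5). The share of all tested genes called in these smaller fits is not given here. The vehicle values compare 1 mouse with 3 and test no label difference.

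Markers of other cells were compared by the same label, where 8.85% of all tested genes were called higher and 10.2% lower. All 10 endothelial markers were lower in two-letter mice, with Flt1 at -1.38 (SE 0.118), the efflux pump gene Abcb1a at -1.18 (SE 0.123), the tight junction gene Cldn5 at -0.99 (SE 0.112) and the glucose transporter gene Slc2a1 at -0.48 (SE 0.091). Their summed level was 85.5 to 203 FPKM in one-letter mice (median 132) and 64.4 to 89.99 FPKM in two-letter mice (median 69.4). Of 6 microglial markers 5 were higher, with summed levels of 190 to 381 FPKM (median 255) and 300 to 522 FPKM (median 356). Of 7 tested choroid plexus markers 1 was lower (Enpp2), with sums of 78.5 to 2054 FPKM (median 121) and 76.3 to 138 FPKM (median 86.2). Of 6 astrocyte markers 1 was higher (Aldh1l1), the red cell gene Alas2 was higher, and no neuronal or oligodendrocyte marker was called out of 6 each. A single call was 14.3% of the choroid plexus and 16.7% of the astrocyte markers tested. It does not set either list apart from all tested genes. Besides the haemoglobin genes, the choroid plexus transcription factor gene Otx2 was listed at 0 in at least 1 library. Their part in the results for the members was not tested.

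The other genes of these pathways, from lists drawn up by function, gave a mixed pattern. Of 8 tested meningeal fibroblast genes outside the members 4 were higher in two-letter mice and none lower, where 8.85% of all tested genes were higher and 10.2% lower. They were the anion transporter gene Slc22a6 at 0.92 (SE 0.172), the connexin gene Gjb2 at 0.88 (SE 0.182), the sulfate transporter gene Slc13a4 at 0.81 (SE 0.24) and the retinoic acid binding protein gene Crabp2 at 0.79 (SE 0.242). All 8 estimates were above 0, with a median of 0.51.

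Of 17 tested matrix remodelling genes 4 were higher and 1 lower in two-letter mice, 23.5% and 5.88% beside 8.85% and 10.2% of all tested genes. Timp1, an inhibitor of metalloproteinases, was higher by 1.18 (SE 0.318), the procollagen processing enhancer gene Pcolce by 0.62 (SE 0.208), the cathepsin K gene Ctsk by 0.30 (SE 0.0862) and Thbs2 by 0.23 (SE 0.0502). The prolyl hydroxylase gene P4ha2 was lower, at -0.18 (SE 0.0616).

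Of 18 tested genes of PDGF and TGF-beta signalling 2 were higher and 4 lower, 11.1% and 22.2% beside the same 8.85% and 10.2%. The ligand gene Tgfb1 was higher by 0.39 (SE 0.104) and the receptor gene Tgfbr1 by 0.25 (SE 0.0859). The endothelial receptors Eng and Acvrl1 were lower, at -0.68 (SE 0.103) and -0.58 (SE 0.0928), as were the latent TGF-beta binding protein gene Ltbp4 at -0.58 (SE 0.0862) and the ligand gene Tgfb2 at -0.46 (SE 0.155). Of 11 matrix receptors 1 was higher, the integrin chain Itgb5 at 0.42 (SE 0.109), and 1 lower, the collagen receptor chain Itga1 at -0.35 (SE 0.0758). The share of receptors called, 18.2%, was near the 19.1% of all tested genes.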

How the data were processed

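RNA from cortex blocks of 14 mice was sequenced by the authors as stranded mRNA libraries with paired-end reads, which they aligned to GRCm39 with HISAT2. The counting tool, its annotation and its use of strand are not given in the sources used here. The authors deposited FPKM, fragments per kilobase scaled to the library total, in a table of 32 libraries and 26264 genes. Of these libraries 5 belong to no sample used here and were left out, and 32 leftover header lines were dropped. Nonzero values corresponded to whole fragments in 100.0% of cases (tolerance 0.01), so fragments per library were recovered (median 27441308).

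Groups follow the treatment and hemisphere that the labels give. Values of log2(FPKM + 1) of 12976 genes were fitted with limma 3.58.1 in R 4.3.3, with an intensity trend, treatment and hemisphere as factors and Benjamini-Hochberg adjustment over all genes tested. The comparison of mouse labels added the number of letters, and interactions added treatment by hemisphere. All p-values are two-sided. The mouse was not a term, so p-values count the hemispheres of a mouse as separate libraries. The hemispheres pair by mouse, from the labels. The correlation of their deviations from the group means over all genes had a median of 0.454 (-0.0787 to 0.648) and exceeded 0.1 in 11 of 13 pairs. Over the tested members it ran from 0.191 (mouse O) to 0.939 (mouse R). The fit was also run on simulated data, in which every library was drawn independently. That run cannot speak to p-values where the hemispheres of a mouse correlate.

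The members, the lists and the comparison of mouse labels were chosen with earlier results of these data known. Genes named with their values were the highest 2 members per group by mean level, the 3 largest estimates per comparison, members called in any comparison, members under the filter, and called genes of the other lists (else the smallest p, at most 3 lists per comparison). Further names are marked in the text. Alternatives were another scaling, no filter, a pseudocount of 0.1, removal of the trend on gene length by lowess (span 0.3), no intensity trend, the label letters as a covariate, the mouse as a replicate block, 1 value per mouse, 1 hemisphere alone, and each mouse left out. Python 3.11.15 with numpy 2.4.6, pandas 2.3.3 and matplotlib 3.10.9 was used for the rest, statmod 1.5.0 for the correlation within mice.

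Gene positions are those of GENCODE vM39 on GRCm39. Promoters are from RefSeq on GRCm38.p6, and 10 members had no entry. Exons of another gene overlapped those of 18 members, on the opposite strand for 18 and on the same strand for 2.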

Additional observations from a re-analysis of the deposited data

Results flagged for a closer look

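For each of 23 named members, the libraries of a group of 4 or 5 were searched for 1 that stood far from the rest, by Dixon's test at 95%. This marked 10 of 138 groups, 7.25%. The nominal 1 in 20 of the test is not a reference here, since members were named partly from these data and groups share libraries. The injected library of the R33 mouse AD was marked for Mgp at 176 FPKM (others 18.9 to 35.6), Col6a2 at 3.97 FPKM (others 1.34 to 1.46) and Col5a1 at 2.51 FPKM (others 0.961 to 1.14). The contralateral library of AD was marked for Slc6a20a at 5.58 FPKM (others 2.39 to 2.57).

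The vehicle mouse AH was marked for the type IV collagen genes. Its Col4a2 was 4.63 FPKM in the injected hemisphere (others 7.67 to 7.93) and 4.46 FPKM in the contralateral hemisphere (others 8.39 to 8.90), and its contralateral Col4a1 was 3.79 FPKM (others 6.49 to 7.17). It is the only vehicle mouse with a two-letter label.

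The remaining marks were single values. Col1a2 was lowest in the contralateral vehicle library of M at 1.23 FPKM (others 2.28 to 2.47). In contralateral R55 libraries, Col5a1 was lowest in AB at 1.44 FPKM (others 2.26 to 2.62), and Col6a1 was highest in Q at 7.54 FPKM (others 4.69 to 5.34).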

How the results depend on the processing

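For the treatments, the hemispheres and the interactions, the count of members called by limma was 0 in every alternative, 24 to 29 for each comparison, and no replicate block changed this. For two-letter against one-letter mouse labels 13 members were called, 12 with the correlation within mice modelled as a replicate block (the mouse could not be a term, since a label belongs to a mouse), 10 with 1 value per mouse and 12 to 16 with each mouse left out. The count moved to 5 in the contralateral hemisphere alone, 7 in the injected hemisphere alone, 1 in vehicle, 0 in R33 and 1 in R55 libraries alone, fits that hold fewer samples. The vehicle fit sets 1 two-letter mouse against 3 and tests no label difference. The count was 11 without the libraries over 100 FPKM of Ttr and 14 without the injected library of AD. The share of all tested genes called in each alternative is not given here, so these counts do not compare the members with other genes. The Ttr, AD, O, single-treatment and single-series alternatives were chosen after seeing the data. Signs turned for estimates that were not called. Aldh1a2 in R55 against R33 became -0.10 in the injected hemisphere, -0.11 without the Ttr libraries and -0.10 in two-letter mice, and Igf2 became 0.24 in the contralateral hemisphere, 0.054 in two-letter mice and -0.51 to 0.023 with each mouse left out, above 0 only without the R55 mouse R. Rgs5 in injected against contralateral became 0.076 in two-letter mice, Dcn for mouse labels -0.044 in vehicle libraries, and Dcn for R33 by hemisphere -0.43 without the Ttr libraries. The causes were not tested. Without the Ttr libraries, Col1a1, Slc6a13 and Anpep were not called for mouse labels (limma adjusted p = 0.138, 0.0786 and 0.063). With 1 value per mouse the same 3 genes were not called. Dcn was called with median-of-ratios scaling (0.0446) and with the length trend removed (0.0458). With 4 or 5 mice a group, changes under the 95% intervals given could not be shown, and replicates that share a label series are not balanced over treatments.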
